A study of Mus musculus with 6 samples.

Results

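The proteasome was read at 100 probe sets of 47 genes on Affymetrix Mouse 430 2.0 arrays of whole mouse embryos, out of 45101 probe sets and 18194 genes with a symbol of their own. Its members were the probe sets that the platform's table pairs with exactly 1 symbol beginning with Psm, followed by a letter from a to g and a number. That pattern took in 103 probe sets and 49 genes. Psmc3ip, a cofactor of meiotic recombination, and Psme3ip1, a nuclear protein that binds the activator Psme3, share the spelling but are no proteasome subunits, and are given apart from the rest. Psme2 was not taken in, since its probe set is paired with 2 symbols. Of the 47 genes, 44 were tested. The testis-specific core subunit Psma8, the immune-type subunit Psmb8 and the thymus-specific subunit Psmb11 lay in the dimmest 33.3% of the array, with signals of at most 39.7 in any pool, and have no test.

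All embryos were of the FVB inbred strain at E10.5. Diabetes-exposed embryos came from dams that were made diabetic at 7 to 9 weeks of age, before mating. They were given 2 injections of 100 mg streptozotocin per kg body weight in citrate buffer, and these dams had blood glucose over 250 mg/dl. Control embryos came from dams with no diabetes. No embryo with a visible malformation was used, RNA of 3 embryos from 3 different pregnancies made up 1 pool, and each group had 3 pools with 1 array per pool, so that an array averages over embryos and over all cell types of the embryo. In such material, a smaller share of cells with a transcript and less of it in each cell cannot be told apart. Streptozotocin itself and the diabetes it causes cannot be told apart either.

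The proteasome is the protease that takes apart proteins tagged with ubiquitin. Its core is a barrel of stacked rings, with outer rings of alpha subunits that form a gate and inner rings of beta subunits, of which Psmb5, Psmb6 and Psmb7 cut peptide bonds. A cap sits on the barrel: its base holds a ring of ATPases that unfold the substrate, and its lid holds Psmd14, which removes the ubiquitin chain. Other caps, the activators Psme1 to Psme4, open the gate without ubiquitin, and a set of chaperones puts the parts together. Cells that divide fast, as those of an embryo do, need it to remove cyclins and other short-lived regulators.

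The exposed arrays differed from the control arrays in labelling as well. In each labelling reaction, RNA spikes of known sequence are added, and the ratio of signal at their 3' end to signal in their middle measures how far reverse transcription ran. Control pools 1, 2 and 3 had ratios of 2.10, 2.07 and 2.52, and diabetes-exposed pools 1, 2 and 3 of 6.56, 3.47 and 7.00. For the embryos' own beta-actin, the ratio of 3' to 5' signal was between 1.71 and 2.19 in control pools and 10.1, 3.09 and 10.3 in exposed pools. Pool 2 of the exposed group was thus the closest of the 3 to the controls on both measures. Its values are given for the proteasome genes described pool by pool, and for only some genes of the other lists. The summed signal of 6 decidual and placental markers, almost all of it from the decidual hormone Prl8a2, was between 5740 and 6608 in control pools and between 102 and 144 in exposed pools, and the part of this difference in the values below was not tested. The labelled tissue had its markers: all 12 markers of embryonic blood, heart, nervous system, somite, liver and limb were above the dimmest 33.3% of the array.

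Signals are on the linear scale of the deposited table. Differences are log2 fold changes of exposed over control pools, fitted with limma over 30025 probe sets, and the verbs rose and fell are kept for genes whose adjusted p (Benjamini-Hochberg over all of them) was under 0.05. A gene with several probe sets is read at the one with the highest mean signal. The ± after a signal is the SD of 3 pools, and the ± after a log2 fold change is its standard error. The p-values measure the spread between pools.

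Transcripts of the proteasome were more often higher than lower in embryos exposed to maternal diabetes. Of the 44 tested genes, 25 rose, 4 fell and 15 did not pass the test. The median log2 fold change was 0.32, between -1.45 for the lid subunit Psmd7 and 1.07 for the core subunit Psmb3. Among all 13956 tested genes, 17.6% rose and 19.9% fell, with a median of 0.00. Genes with strong signals rose more often, however: among the 2037 genes at or above the lower quartile of the proteasome genes' own signal (2366), 49.7% rose and 11% fell, with a median of 0.26. Against these, the 56.8% of proteasome genes that rose and the 9.09% that fell are a share near the background, and the count is no result about the proteasome as a whole. The groups did not overlap in 29 genes that were higher and 4 that were lower in exposed pools, where 25.9% and 26.5% of all tested genes did so. Among the 2037 genes of strong signal, 1188 were higher and 300 lower without overlap, so these counts are no result about the proteasome either. The parts of the particle are described in turn.

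The medians of the 4 main parts stood in a row from core to activators. Their median control signals stood in the same order, at 6980, 6058, 4385 and 2723. The part of signal strength in this row was not tested. For the counts of parts here and below, the shares among the 2037 genes of strong signal were 49.7% that rose and 11% that fell. Of 16 tested core genes, 12 rose and 0 fell, and the median log2 fold change was 0.42. Of 9 base genes, 4 rose and 0 fell, with a median of 0.19. Of 8 lid genes, 3 rose and 2 fell, and their median was 0.07 on the deposited signals, -0.16 after quantile normalization and -0.14 after cyclic loess. Of 3 activators, 1 rose and 2 fell, with a median of -0.42. Each exposed pool gave the core above the base and the lid, and the activators below: taken relative to the control mean, the medians over genes in exposed pools 1, 2 and 3 were 0.47, 0.36 and 0.44 for the core, 0.10, 0.30 and 0.17 for the base, 0.06, 0.21 and 0.09 for the lid, and -0.41, -0.17 and -0.51 for the activators. In pool 2 the 4 parts lay closer together than in pools 1 and 3. Control pools lay between -0.10 and 0.10 in all 4 parts.

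**Figure D1:**
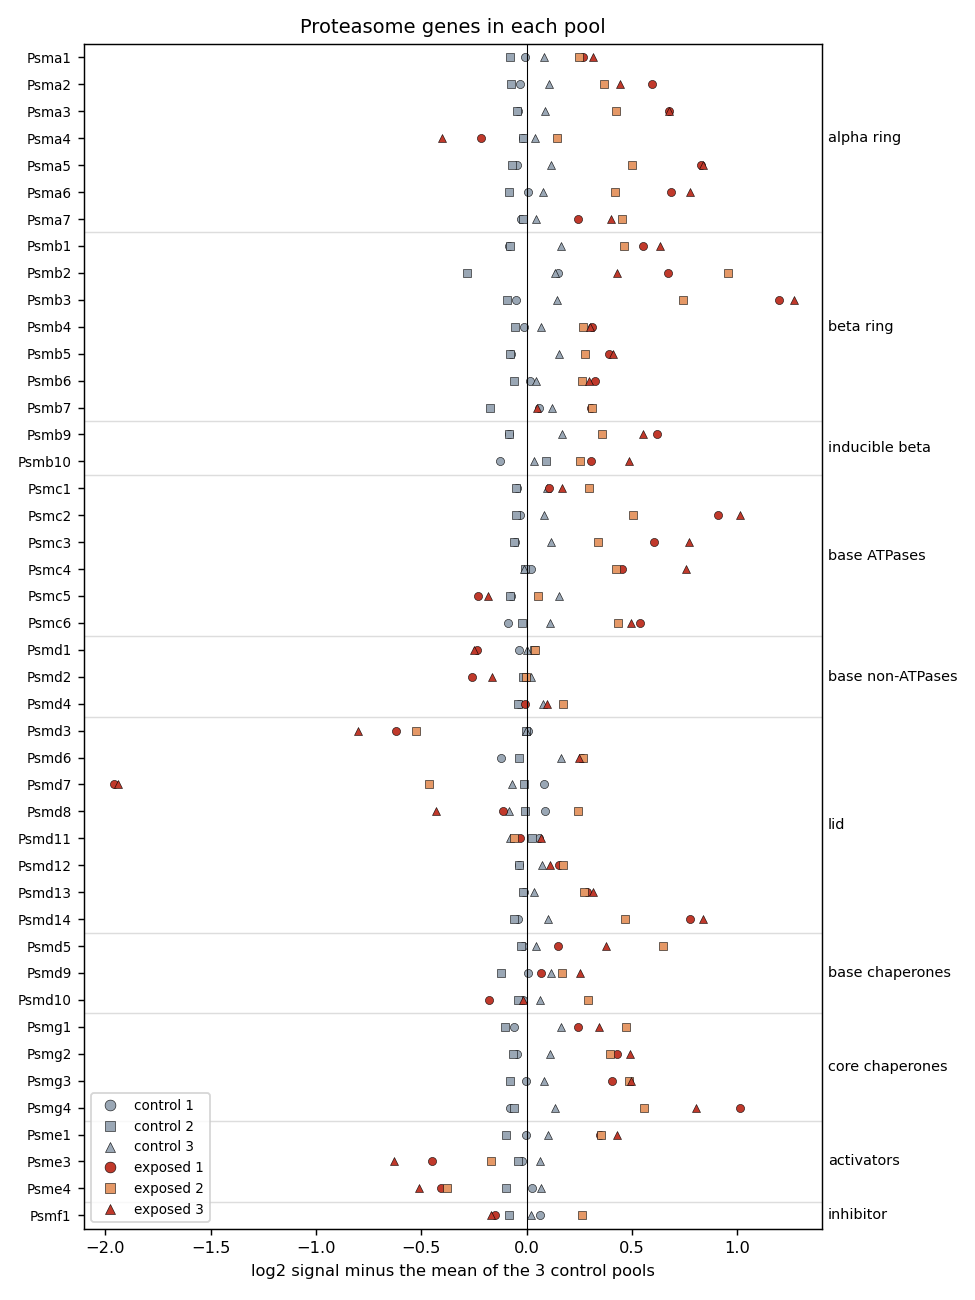
Log2 signal of each of the 44 tested proteasome genes in each pool, minus the mean log2 signal of the 3 control pools. Grey points are control pools and coloured points diabetes-exposed pools, with pool 2 (square) in orange, and genes are grouped by their place in the particle. In 29 genes the exposed pools all lie right of the controls (25.9% of all tested genes), in 4 (Psmd3, Psmd7, Psme3 and Psme4) all left (26.5%), and in 11 the groups overlap. Of the 2037 genes of strong signal, 1188 were higher and 300 lower without overlap.

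The alpha ring rose almost as a whole. Of its 7 tested subunits, 6 rose, and the median over the ring was 0.47. Psma5 rose most: control pools gave signals of 7653, 7538 and 8569 and exposed pools of 14039, 11169 and 14136. The groups did not overlap, and exposed pools 1 and 3 stood above pool 2. This was 1.65-fold, a log2 fold change of 0.72 ± 0.11 (adjusted p = 0.00178, limma). Psma4 was the exception of the ring, with signals of 6855, 6859 and 7135 in control pools and 5983, 7687 and 5259 in exposed pools. Exposed pool 2 lay above every control pool and pools 1 and 3 lay below them, so that the log2 fold change of -0.16 ± 0.13 did not pass the test (adjusted p = 0.381, limma). Without exposed pool 2 it passed as a decrease, and after median centring its sign turned to 0.14. The other 5 subunits, Psma1, Psma2, Psma3, Psma6 and Psma7, rose by between 0.28 and 0.63 on the log2 scale with no overlap of the groups. The 0.63 was that of Psma6, at a probe set whose suffix marks probes shared with other transcripts. A second Psma6 probe set rose by 0.24 ± 0.07 (adjusted p = 0.0305, limma). At a second Psma7 probe set the groups overlapped, and 0.07 ± 0.14 did not pass (adjusted p = 0.728, limma).

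The beta ring moved the same way. Of the 7 standard beta subunits, 6 rose, with a median of 0.36. Psmb3, a structural beta subunit without a catalytic site, had the largest log2 fold change of all 44 genes. Its signal was 4447, 4323 and 5089 in control pools and 10583, 7719 and 11109 in exposed pools. All exposed pools were above all control pools, and pool 2 was again the lowest of the exposed ones. The change was 2.10-fold, or 1.07 ± 0.14 on the log2 scale (adjusted p = 0.00109, limma). A second Psmb3 probe set gave less than this, with 4651, 4321 and 5260 in control pools against 6675, 6668 and 6722 in exposed pools, a log2 fold change of 0.50 ± 0.09 (adjusted p = 0.00336, limma). There the 3 exposed pools were nearly equal, so that both the size of the Psmb3 increase and the distance of pool 2 from the others depended on the probe set.

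Of the catalytic subunits, 2 rose. Psmb5, which cuts after hydrophobic residues, had signals of 5264, 5250 and 6174 in control pools and 7262, 6716 and 7365 in exposed pools, a 1.28-fold increase (log2 fold change 0.36 ± 0.09, adjusted p = 0.0151, limma). Psmb6, which cuts after acidic residues, had 7196, 6835 and 7328 in control pools and 8923, 8537 and 8727 in exposed pools, a 1.23-fold increase (log2 fold change 0.29 ± 0.07, adjusted p = 0.0129, limma). For both genes the groups did not overlap. Psmb7, which cuts after basic residues, had 14610, 12440 and 15244 in control pools and 17337, 17434 and 14520 in exposed pools. Exposed pool 3 fell among the controls, and the log2 fold change of 0.22 ± 0.11 did not pass the test (adjusted p = 0.144, limma). The calls of Psmb5 and Psmb6 did not pass without control pool 1 or 2 or exposed pool 1, nor that of Psmb5 without exposed pool 3 (adjusted p between 0.0535 and 0.0732 in these 7 limma fits). After quantile normalization the log2 fold changes were 0.08 for Psmb5, -0.0066 for Psmb6 and -0.063 for Psmb7, and after cyclic loess 0.14, 0.035 and -0.16.

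Psmb8, Psmb9 and Psmb10 are the inducible counterparts of the catalytic subunits and build the immunoproteasome, which makes peptides for antigen presentation. Psmb8 had signals of at most 10.5 in any pool at both of its probe sets and was not tested. Psmb9 had signals between 40.1 and 47.7 in control pools and between 54.4 and 65.2 in exposed pools, a log2 fold change of 0.51 ± 0.31 that did not pass the test (adjusted p = 0.240, limma). Psmb10 was at 294, 341 and 329 in control pools and 396, 383 and 450 in exposed pools. Its groups did not overlap, but its log2 fold change of 0.35 ± 0.13 missed the threshold on the deposited signals (adjusted p = 0.0730, limma). It passed it under all 3 other scalings, with log2 fold changes of 0.65 after median centring, 0.64 after quantile normalization and 0.56 after cyclic loess. Of 9 tested genes of antigen presentation, 1 rose (11.1%, against 17.6% of all tested genes) and 2 fell (22.2%, against 19.9%). B2m, the invariant chain of class I molecules, rose by 0.87 ± 0.11 on the log2 scale (adjusted p = 0.00110, limma), and H2-D1, a class I heavy chain, changed by -0.91 ± 0.16 (adjusted p = 0.00310, limma). For H2-D1, exposed pools 1, 2 and 3 were at 744, 1084 and 851, against a control mean of 1671. Of 10 macrophage markers, 1 rose, the receptor Csf1r (10%, against 17.6% of all tested genes), and 0 fell (against 19.9%). Their log2 fold changes lay between -0.86 and 1.49, with 7 above 0. Their summed signal was 1329 to 1443 in control pools and 1411 to 1830 in exposed pools. Csf1r alone had a mean signal of 351 in control pools and 512 in exposed pools.

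Within the cap, the ATPase ring and the scaffold around it differed. Of the 6 ATPases, 4 rose (Psmc2, Psmc3, Psmc4 and Psmc6), and their median was 0.52. Psmc2 rose most, from 7609, 7532 and 8250 in control pools to 14638, 11064 and 15709 in exposed pools. All exposed pools were above the controls, with pool 2 the lowest of them. The change was 1.75-fold, or 0.81 ± 0.13 on the log2 scale (adjusted p = 0.00212, limma). At a second Psmc2 probe set, whose mean signal was a little lower, the log2 fold change was 0.20 ± 0.07 and did not pass (adjusted p = 0.0684, limma). The first of these probe sets has the suffix that marks probes shared with other transcripts. Psmc5 had 5074, 5061 and 5937 in control pools and 4551, 5538 and 4702 in exposed pools, a log2 fold change of -0.12 ± 0.10 that did not pass (adjusted p = 0.407, limma). Here pool 2 lay among the controls and pools 1 and 3 below them.

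None of the 3 base subunits that are no ATPases passed the test. Psmd1, the large scaffold of the base, had 4892, 5150 and 5028 in control pools and 4271, 5158 and 4226 in exposed pools, a log2 fold change of -0.15 ± 0.10 (adjusted p = 0.263, limma). Psmd2, the other large scaffold, was at -0.14. Psmd4, a receptor for ubiquitin chains, was at 0.09 ± 0.08 (adjusted p = 0.449, limma), with 4378, 4369 and 4746 in control pools against 4475, 5062 and 4805 in exposed pools. For all 3 the groups overlapped. Psmd1 passed the test as a decrease when exposed pool 2 was left out, after quantile normalization (-0.37) and after cyclic loess (-0.32), and its sign turned after median centring (0.15).

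The lid held changes in both directions, and its 3 increases became 1 without control pool 1 or 2 or exposed pool 1 or 3. Psmd14, the enzyme that frees ubiquitin from the substrate, rose 1.62-fold: its signal was 6633, 6557 and 7344 in control pools and 11686, 9445 and 12197 in exposed pools, a log2 fold change of 0.69 ± 0.11 (adjusted p = 0.00208, limma). No exposed pool came near the controls. Psmd6 and Psmd13 also rose, by 0.26 ± 0.09 (adjusted p = 0.0487, limma) and 0.29 ± 0.07 (adjusted p = 0.0160, limma). Psmd3, a scaffold subunit, fell in all exposed pools, from 2504, 2487 and 2486 in control pools to 1621, 1734 and 1432. Its control pools were nearly equal, and the 1.57-fold decrease was a log2 fold change of -0.65 ± 0.09 (adjusted p = 0.00153, limma). After median centring it was -0.35 and did not pass (adjusted p = 0.0982, limma).

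Psmd7, the partner of Psmd14 in the lid, had the largest decrease of the 44 genes, and the least even one. Its signal was 2256, 2115 and 2028 in control pools and 549, 1547 and 556 in exposed pools. Exposed pools 1 and 3 lay far below the controls and pool 2 nearer to them, which gave a 2.74-fold decrease and a log2 fold change of -1.45 ± 0.35 (adjusted p = 0.0119, limma). Pool 2 was also the exposed pool with the lowest spike ratio, and when that ratio entered the fit the log2 fold change turned to 0.40 (adjusted p = 0.474, limma). At the other 2 tested Psmd7 probe sets, with signals of at most 235, the log2 fold changes were 0.25 and 0.55 and did not pass. Psmd3 kept its sign with the covariate at -0.40 (adjusted p = 0.278, limma).

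The activators were divided. Psme1, a subunit of the ring that interferon induces, rose 1.30-fold: it was at 2715, 2542 and 2925 in control pools and 3470, 3481 and 3659 in exposed pools, a log2 fold change of 0.38 ± 0.08 (adjusted p = 0.00888, limma). The 3 exposed pools were close to each other. Psme3, the nuclear activator, was at 1887, 1862 and 1998 in control pools and 1402, 1704 and 1237 in exposed pools, and fell by 0.42 on the log2 scale (SE 0.12, adjusted p = 0.0278, limma). Pool 2 was the closest of the exposed pools to the controls. This decrease passed without exposed pool 2 and failed without any other single pool (adjusted p between 0.0695 and 0.0897, limma), and after median centring it was -0.12. Psme4, a large single-chain activator that also acts on acetylated histones, was at 5790, 5315 and 5966 in control pools and 4281, 4367 and 3993 in exposed pools. All exposed pools lay within a narrow range below the controls, a 1.35-fold decrease (log2 fold change -0.43 ± 0.08, adjusted p = 0.00435, limma) that was -0.13 and did not pass after median centring. Psmf1, which encodes the inhibitor PI31, was at 939, 849 and 914 in control pools and 812, 1080 and 801 in exposed pools, with a log2 fold change of -0.02 ± 0.13 (adjusted p = 0.933, limma). Its sign turned under all 3 other scalings, to between 0.076 and 0.28.

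The chaperones that build the core rose together, each at its probe set with the strongest signal. Psmg1, Psmg2, Psmg3 and Psmg4, which pair up to assemble the alpha ring, all rose, with a median of 0.45. Psmg4 rose most, from 1235, 1250 and 1431 in control pools to 2629, 1914 and 2274 in exposed pools, 1.73-fold or 0.79 ± 0.13 on the log2 scale (adjusted p = 0.00232, limma). Psmg1 rose least, from 2419, 2348 and 2825 to 2983, 3500 and 3198, a log2 fold change of 0.35 ± 0.10 (adjusted p = 0.0268, limma), and its call did not pass after quantile normalization (0.25) nor without control pool 1 or 2 or exposed pool 3 (adjusted p between 0.0678 and 0.110, limma). For all 4 the groups did not overlap at that probe set. At a second Psmg2 probe set, of slightly lower mean signal, control pools gave 3183, 3510 and 3657 and exposed pools 2016, 3695 and 2074. There the groups overlapped, and the log2 fold change of -0.47 ± 0.21 did not pass (adjusted p = 0.118, limma). Another, with signals of at most 63.8, was at -1.30 and did not pass either. In Psmg4 pool 2 was the lowest exposed pool and in Psmg1 the highest. Of the 3 tested chaperones of the base, 1 rose. Of all tested genes 17.6% rose and 19.9% fell. The median control signal was 1912 for the 4 chaperones of the core and 972 for those of the base. Both medians lie under the 2366 that bounds the genes of strong signal, and genes of like signal were not set apart here. Psmd5 was at 1807, 1798 and 1885 in control pools and 2027, 2866 and 2376 in exposed pools, a log2 fold change of 0.39 ± 0.12 (adjusted p = 0.0382, limma), with pool 2 the highest. Without exposed pool 3 or any single control pool this call did not pass (adjusted p between 0.0662 and 0.110, limma). Psmd10, also known as gankyrin, was at 959, 943 and 1014 against 859, 1188 and 960, a log2 fold change of 0.03 ± 0.13 (adjusted p = 0.871, limma).

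The TCP1 ring, a chaperonin that folds actin and tubulin and is likewise a ring of many subunits with strong signals, served as a comparison outside the pathway. Of its 8 genes, 6 rose (75%) and 0 fell, and their median was 0.32. Of the 2037 genes of strong signal, 49.7% rose and 11% fell. The median control signal was 12803 for the TCP1 ring and 3945 for those 2037 genes. Its medians in exposed pools 1, 2 and 3 were 0.34, 0.22 and 0.43, against 0.47, 0.36 and 0.44 for the proteasome core. Cct3 had the largest change (0.60 ± 0.09, adjusted p = 0.00205, limma) and Cct5 the smallest that passed (0.27 ± 0.09, adjusted p = 0.0416, limma).

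Exposed pool 2, with the lowest spike ratio of the 3, lay nearest to the controls in many genes, but not in all. Among the 33 genes with a log2 fold change above 0, pool 2 was the lowest exposed pool in 20 (60.6%, against 52.1% of all tested genes above 0). Among the 11 genes below 0 it was the highest exposed pool in 10 (90.9%, against 49.2% of all tested genes below 0). Of the 25 genes that rose, pool 2 lay within 0.1 on the log2 scale of the mean of pools 1 and 3 in 9, below it by more in 12 and above it by more in 4. Those above were Psma7, Psmb2, Psmd5 and Psmg1. The widest gaps were -0.49 for Psmb3 and 0.40 for Psmb2. The ratio also separates the groups, since no control pool was above 2.52 and no exposed pool below 3.47. In a limma fit that held the ratio as a covariate, 0 proteasome genes passed in either direction, where 11 of all tested genes rose and 241 fell. Its log2 fold changes had a median of 0.24 over the core, 0.20 over the base, 0.21 over the lid and 0.022 over the activators, so that the row from core to lid was no longer seen. With exposed pools 1 and 3 left out, the median log2 fold change was 0.29 over the proteasome genes and 0.02 over all tested genes. That fit assumes the lone pool to vary as the controls do. Genes of like signal were not set apart in it. The part of the labelling in these differences was not tested.

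**Figure D2:**
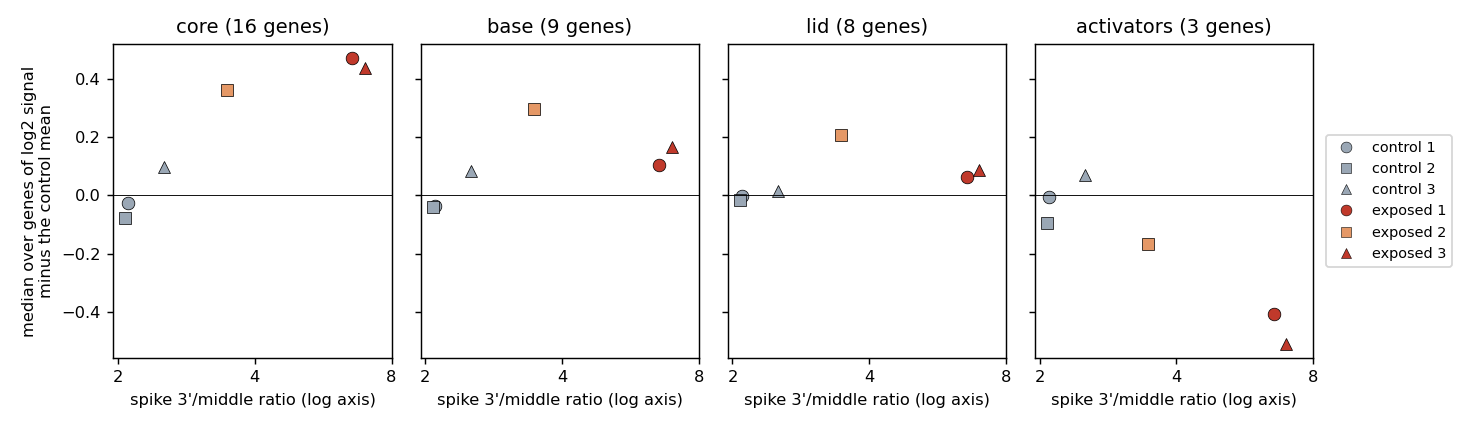
Median over the genes of a part of log2 signal minus the control mean (vertical axis), against the ratio of 3' to middle signal of the spikes (horizontal, log axis), with 1 point per pool. Grey points are the 3 control pools and coloured points the 3 exposed pools. In the core the exposed pools lie at 0.36 to 0.47 with ratios from 3.47 to 7.00, and in the activators pools 1 and 3, with ratios of 6.56 and 7.00, lie lower (-0.41 and -0.51) than pool 2 (-0.17).

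Probe sets of a gene did not always give the same answer. Of the 89 tested proteasome probe sets, 36 rose, 9 fell and 44 did not pass, with a median log2 fold change of 0.28, where 14.4% of all tested probe sets rose and 21.8% fell. Of 22 proteasome genes with several tested probe sets, 1 had calls in both directions, where 8.58% of all such genes did. This was Psme4. Besides the probe set given above, a second fell from 4626, 4700 and 4565 in control pools to 2670, 3185 and 2319 in exposed pools, a log2 fold change of -0.78 ± 0.12 (adjusted p = 0.00166, limma). Another fell from 1993, 1901 and 1541 to 206, 522 and 136, which was 7.36-fold or -2.88 ± 0.41 on the log2 scale (adjusted p = 0.00142, limma). A weaker one rose from 334, 362 and 452 to 579, 520 and 794, by 0.71 ± 0.19 (adjusted p = 0.0171, limma). The 3 Psme4 probe sets with the strongest signals thus fell by between 1.35-fold and 7.36-fold, and at each of them pool 2 was the exposed pool nearest to the controls.

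For 3 other genes, a probe set fell while the one with the strongest signal did not pass. Psmd11, a lid subunit, was even at its strongest probe set, with 8076, 7900 and 7339 in control pools and 7598, 7458 and 8131 in exposed pools (log2 fold change -0.01 ± 0.08, adjusted p = 0.950, limma). At another it fell from 3044, 3299 and 2785 to 970, 1857 and 1211 (-1.23 ± 0.21, adjusted p = 0.00273, limma). Psmd4 fell at 1 probe set from 3840, 3581 and 3713 to 1753, 3408 and 1701 (-0.78 ± 0.23, adjusted p = 0.0309, limma), where pool 2 was close to the controls. Psmf1 fell at 1 probe set from 537, 502 and 496 to 219, 327 and 241 (-0.98 ± 0.17, adjusted p = 0.00283, limma). In each of these 3 probe sets pool 2 was the highest of the exposed pools. The distance of a probe set from the 3' end of its transcript was not analysed here. Psmc3ip, which shares only the spelling of the name, rose at 1 probe set (0.62 ± 0.12, adjusted p = 0.00487, limma) and was at -0.09 at the other, and Psme3ip1 did not pass (0.15 ± 0.10, adjusted p = 0.272, limma).

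**Figure D3:**
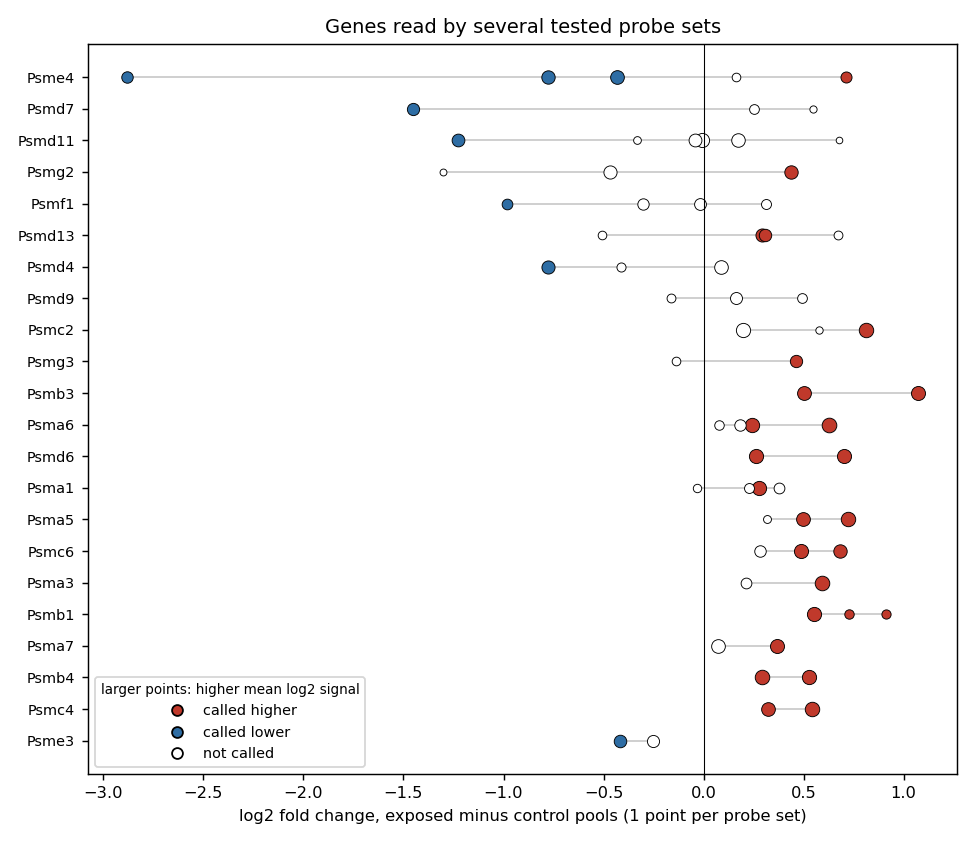
Log2 fold change of exposed over control pools at each tested probe set (1 point) of the 22 proteasome genes with several of them, ordered by the distance between the extremes. Red points rose, blue points fell, open points did not pass, and larger points have a higher mean log2 signal. Psme4 runs from -2.88 to 0.71 and is the only gene with red and blue points, while both probe sets of Psmb3 rose (1.07 and 0.50).

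Partners of the proteasome moved in both directions. Of 14 tested proteins that bind the proteasome, help assemble it or bring substrates to it, 3 rose and 4 fell, with a median of -0.07. Txnl1, a thioredoxin of the cap, rose most, by 0.66 ± 0.10 (adjusted p = 0.00149, limma), and the shuttle receptor Rad23b fell from a mean signal of 5086 to 3336, a log2 fold change of -0.62 ± 0.11 (adjusted p = 0.00401, limma). Sem1, a small lid subunit whose name the rule does not take in, and Pomp, which matures the core, rose by 0.63 and 0.48. Among 10 ubiquitin-activating and conjugating enzymes, 2 rose and 1 fell. Uba6, which activates ubiquitin, rose by 0.57 ± 0.10 (adjusted p = 0.00343, limma), and Ube2s, which extends chains in mitosis, changed by -0.62 ± 0.12 (adjusted p = 0.00433, limma). For Ube2s, exposed pools 1, 2 and 3 were at 4710, 5586 and 4185, against a control mean of 7404.

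The unfoldase p97, its cofactors and the factors that transcribe proteasome genes made up a list of 12, of which 4 rose and 3 fell. Vcp, which encodes p97, had a log2 fold change of -0.41 ± 0.10 (adjusted p = 0.0122, limma). Its exposed pools 1, 2 and 3 were at 7451, 9349 and 7650, against a control mean of 10763. Nfe2l1, the transcription factor that raises proteasome genes when proteasome activity is low, had the lowest value of the list, with mean signals of 752 in control pools and 395 in exposed pools and a log2 fold change of -0.93 ± 0.17 (adjusted p = 0.00408, limma). Its exposed pools 1, 2 and 3 were at 379, 475 and 332. Its relative Nfe2l2, the factor of the oxidative stress response, rose by 0.39 ± 0.10 (adjusted p = 0.0137, limma). Nfyc, a subunit of the factor that binds CCAAT boxes, had the highest value, 0.67 ± 0.11 (adjusted p = 0.00262, limma), while its partners Nfya and Nfyb were at -0.05 and -0.02. The shares of these 3 lists that rose were 21.4%, 20% and 33.3%, and those that fell 28.6%, 10% and 25%. Of all tested genes 17.6% rose and 19.9% fell, and of the 2037 genes of strong signal 49.7% and 11%. The median control signals of the lists were 5025, 5278 and 1544.

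Nfe2l1 and Nfe2l2 bind antioxidant response elements, and the promoters of proteasome genes were searched for the core of this element and for CCAAT boxes. RefSeq windows of assembly GRCm38.p6, from 250 bases before to 50 bases after a transcription start, were found for 39 of the 47 genes, 41 windows in all. TGACNNNGC, on either strand, was in 6 of these windows (14.6%) and in 12.4% of all 32851 windows. CCAAT, on either strand, was in 14 (34.1%) and in 37.4% of all. Among the 16 core windows, 8 (50%) held CCAAT. These shares are a description of letters and not of binding. The stretches below are shown for the catalytic subunits with a match, for Psme4, which fell, for Psmb3, which rose most, and for the lid protease Psmd14, with the match in capitals and 10 bases on each side, 5' to 3' on the strand of the gene.
Psmb5 (chr14:54618024-54618052, minus strand): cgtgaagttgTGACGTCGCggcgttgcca
Psmb6 (chr11:70525338-70525366, plus strand): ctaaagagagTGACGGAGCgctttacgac
Psme4 (chr11:30771758-30771786, plus strand): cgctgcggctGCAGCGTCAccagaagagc
Psmb3 (chr11:97703381-97703405, plus strand): ggcccgccagCCAATggggaggatt
Psmd14 (chr2:61711688-61711712, plus strand): ccggcggactCCAATtggcggtaga
In Psme4 the match is on the opposite strand to the gene, and in Psmd14 it overlaps a CCAAT of the opposite strand. Psmb3 has 2 matches, of which the one nearer to the start is shown. Of the 6 genes with TGACNNNGC in their window, Psmb5, Psmb6 and Psmc6 rose, Psme4 fell, and Psmd9 and Psmd12 did not pass the test.

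The sizes of the changes depended on how the arrays were scaled, and the row of the parts less so. Median centring moved the median of all tested genes by 0.30, and the medians relative to all genes were then 0.42 for the core, 0.19 for the base, 0.07 for the lid and -0.42 for the activators. After quantile normalization all genes moved by 0.14, and the relative medians were 0.07, -0.13, -0.30 and -0.53. After cyclic loess all genes moved by 0.08, and they were 0.15, -0.04, -0.22 and -0.50. The order of the 4 parts after quantile normalization and after cyclic loess was that on the deposited signals. Median centring shifts every log2 fold change alike, so it cannot change the order or the relative medians. Relative to all genes, the base and the lid turned negative after quantile normalization and after cyclic loess. Calls went from 25 higher and 4 lower to 29 and 1 with median centring, 20 and 9 with quantile normalization, and 19 and 8 with cyclic loess. Of all called genes, 47.0%, 76.9%, 61.0% and 54.4% were higher under the same 4 scalings.

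**Figure D4:**
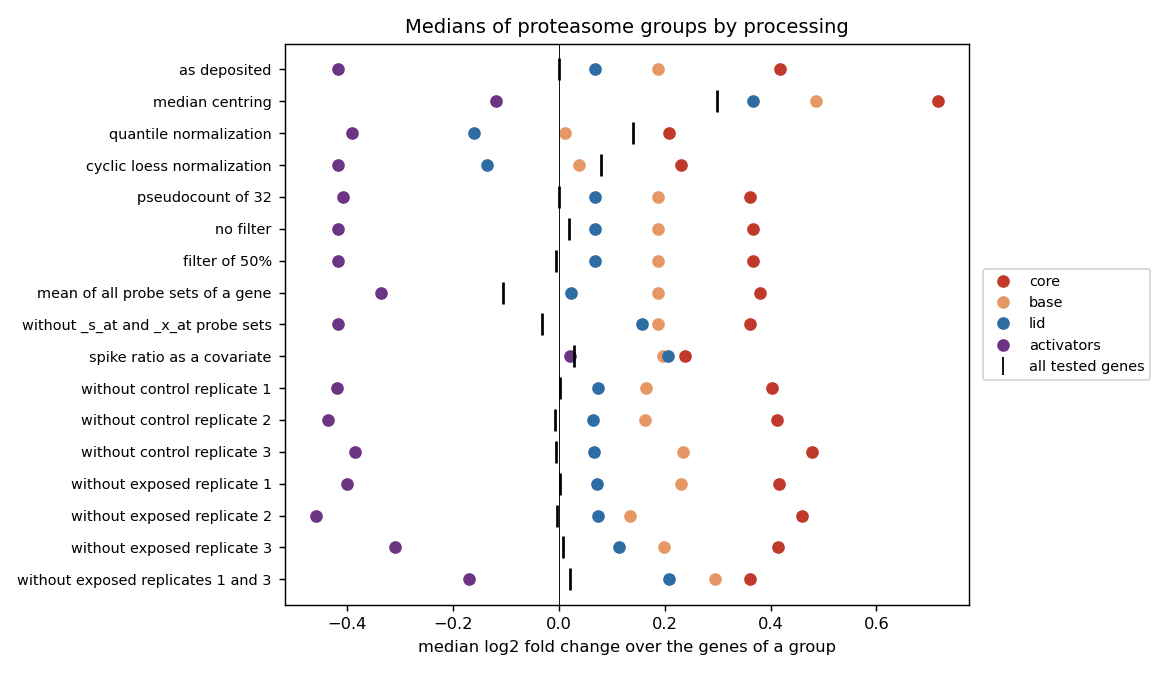
Median log2 fold change over the tested genes of the core, base, lid and activators (coloured points) and over all tested genes (black bars) under different ways of processing the arrays. Not shown are eBayes without a trend, the Welch test and the replicate block, which leave the log2 fold changes as they are. The core is right of the bar of all genes in every row and, where the spike ratio enters as a covariate, the activators move from -0.42 to 0.022.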

How the data were processed

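Total RNA of 6 embryo pools was labelled in 1 cycle and hybridised to 1 array each. The authors deposited an intensity for every probe set and array, unlogged, from GCOS and MAS5 (versions not given in the sources used here), scaled to a trimmed mean of 500 per array. Detection calls were not used here. The number of arrays limits the precision, and an exact two-sided permutation test of 3 against 3 pools cannot give less than 0.1. Probe sets were named through the platform's table, in which 34958 had 1 symbol, 932 several and 9211 none.

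Log2 was taken without a pseudocount. The 64 control probe sets and the lowest 33.3% by mean log2 signal were left out, and the other 30025 were fitted in R 4.3.3 by the lmFit and trended eBayes functions of limma 3.58.1 with Benjamini-Hochberg adjustment. Each gene was read at its tested probe set with the highest mean. The spike ratio is a mean over 8 pairs of probe sets. Groups and replicate numbers came from the labels, which name no batch, and the replicate numbers did not pair the pools. The fit was tested on simulated data.

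The members, lists, markers and tests were chosen with earlier results of these data known. The rule for named genes took the highest and the lowest member of each class, the catalytic and inducible beta subunits, the activators, Psmd14, each member that fell, and the highest and lowest called gene of each other list. Psmd6, Psmd13, Psmd2, Psmd11, the ATPases besides Psmc2 and Psmc5, the 5 other alpha subunits, Psmb2, Psmg2, Psmg3, Psmd9, Psmd12, Sem1, Pomp, Vcp, Nfe2l2, Nfya and Nfyb were named after their values were seen. Alternatives were a pseudocount of 32, median centring, cyclic loess and quantile normalization, a filter of 50% or none, eBayes without a trend, a gene's probe sets averaged, probe sets shared between transcripts removed, the test of the methods (Welch), the spike ratio as a covariate, a replicate block and leaving out each pool. The Welch test was used without the second test (Cyber-T) and the fold-change cut of the methods. Leaving out exposed pools 1 and 3 together was added after the data were seen. Python 3.11.15 and matplotlib 3.10.9 drew the figures.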

Additional observations from a re-analysis of the deposited data

How the results depend on the processing

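Counts are of proteasome genes unless all probe sets are named, and values are log2 fold changes. Median centring gave medians of 0.62 over all members, 0.72 over the core, 0.49 over the base, 0.37 over the lid and -0.12 over the activators. It left 1 member lower, which was 1 in the lid, and 0 activators lower, with 7456 probe sets higher and 3917 lower of all. It turned Psma4 to 0.14, Psmc5 to 0.18, Psmd1 to 0.15 and Psmf1 to 0.28. Quantile normalization gave medians of 0.18 over all members, 0.21 over the core, 0.012 over the base and -0.16 over the lid. It gave 9 lower members, with 1 in the core and 3 in the base, and turned Psmb6 to -0.0066, Psmb7 to -0.063, Psmd4 to -0.11 and Psmf1 to 0.17. Cyclic loess gave 0.17, 0.23, 0.038 and -0.14 in the same order, with 8 lower members, 3 of them in the base, and turned Psmb7 to -0.16, Psmd4 to -0.079 and Psmf1 to 0.076. Without a variance trend the lid had 1 higher gene and the activators 1 lower. Averaging a gene's probe sets gave a median of 0.25 over all members and 1 lower lid gene, and turned Psmd4 to -0.37. Without shared probe sets the lid's median was 0.16 and Psmc3ip was at -0.094. The Welch test alone, at an unadjusted p under 0.05, left 2 lower members, 1 in the lid and 1 activator. The paper also asked for a second test (Cyber-T) and a fold-change cut, which were not applied here. After Benjamini-Hochberg it left 1 higher member, Psmd13 in the lid, with 0 in the core, base and activators and 0 lower ones, and 81 probe sets higher and 333 lower of all.

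With the spike ratio as a covariate 0 members were called in either direction in any part, with 29 probe sets higher and 334 lower of all. The medians were 0.24 over all members and over the core, 0.21 over the lid and 0.022 over the activators, and signs turned for Psma4 (0.40), Psmc5 (0.11), Psmd1 (0.20), Psmd7 (0.40), Psme3 (0.022) and Psmf1 (0.49). Without exposed pools 1 and 3 there were 1 higher lid gene, 0 higher and 1 lower activators, medians of 0.30 over the base, 0.21 over the lid and -0.17 over the activators, and 1467 probe sets higher and 3639 lower of all. Psma4 (0.15), Psmc5 (0.052), Psmd1 (0.039) and Psmf1 (0.26) turned sign. With single pools left out, higher members numbered 17 to 25 and lower ones 3 to 7, the 7 without exposed pool 2. The core had 8 to 12 higher and 0 to 1 lower, the base 0 to 2 lower, the lid 1 to 3 higher (1 without control pool 1 or 2 or exposed pool 1 or 3) and the activators 1 to 2 lower (2 without exposed pool 2), with 2731 to 4957 probe sets higher and 4375 to 7367 lower of all. Psmd10 turned to -0.10 without exposed pool 2, and Psmf1 to between 0.012 and 0.057 without control pool 1 or exposed pool 1 or 3. The replicate block, on numbers that pair nothing (correlations of deviations from 0.000049 to 0.118), kept 25 higher and 4 lower members, with 4330 probe sets higher and 6687 lower of all. The cause of these changes was not tested. Of the 100 medians recomputed, 78 moved by less than the spread between pools. These include the medians without a variance trend, under both forms of the Welch test and with the replicate block. Such settings leave the log2 fold changes as they are, so their medians could not move.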
